A study of Rattus norvegicus with 10 samples.

Results

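The genes described here are 43 ciliary genes of the rat hippocampus, chosen by name from a table of 23824 features (a gene symbol with its rows summed, or a row with no symbol). A gene was taken if its symbol began with Dnah, Dnai, Rsph, Tekt, Spag or Cfap, or with Ift or Bbs followed by a digit, or if it was Foxj1, Ccdc153, Tmem212 or Odf3b. The rule found 45 rows for the 43 symbols, with Spag4 and Spag9 on 2 rows each. By role, 21 belong to motile cilia, 17 to transport into and out of cilia (11 Ift and 6 Bbs genes), and 5 carry a Spag symbol but are not parts of the ciliary shaft. No Cfap symbol met the rule, and Dnah1 was the only Dnah gene. Hippocampal messenger RNA was measured by poly-A RNA sequencing in 5 libraries from rats with traumatic brain injury (TBI), made by fluid percussion, in which a pulse of fluid strikes the exposed dura, and in 5 libraries from rats given sham surgery. All were male Sprague Dawley rats of 200 to 240 g at the outset, acclimatized on standard rat chow, then operated on, tested for learning and killed 1 week after surgery. They carried no engineered allele, and their age is not given in the sources used here. Whether every library came from its own rat is not spelled out in the labels, and the p-values reflect only how far these libraries vary. How the ventricular lining and choroid plexus were handled at dissection is not given in the sources used here.

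Motile cilia are beating hairs built on a ring of microtubule doublets (the axoneme) around a central pair. In the brain they stand in tufts on ependymal cells, which line the ventricles and move cerebrospinal fluid, and the epithelium of the choroid plexus also bears several cilia on each cell. Neurons and astrocytes carry instead a single primary cilium without beating parts. Both kinds are built and supplied by intraflagellar transport (IFT), in which IFT-B particles carry cargo out and IFT-A particles return it, and by the BBSome, a coat that moves membrane proteins. The transcription factors FOXJ1 and RFX switch on motile cilium genes, RFX through a DNA sequence called the X-box.

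The promoters printed are those of Odf3b, Ccdc153 and Tmem212, named in the rule, and of 4 further motile genes chosen because they hold the X-box arm. They are thus not a sample of the motile promoters, and those of Dnai1, Dnah1, Rsph6a, Rsph9, Rsph10b, Tekt3, Tekt4 and Spag8 hold no arm. Each is the 170 bases before the annotated start, from RefSeq on GRCr8, with 5′ on the left and read on the strand of the gene. Capitals mark an X-box arm, GTTGCC or its reverse complement GGCAAC, and in Spag6 also the longer run that matched the full X-box, here GTNNCC and GGNNAC parted by 2 bases (N is any base). In GRCr8 Odf3b is named Cimap1b and Ccdc153 is named Drc12.
Odf3b (chr7:122326922-122327091, minus strand): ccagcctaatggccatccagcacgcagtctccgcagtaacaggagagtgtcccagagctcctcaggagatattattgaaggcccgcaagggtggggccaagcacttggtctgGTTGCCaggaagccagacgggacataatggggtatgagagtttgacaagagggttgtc
Ccdc153 (chr8:53474489-53474658, plus strand): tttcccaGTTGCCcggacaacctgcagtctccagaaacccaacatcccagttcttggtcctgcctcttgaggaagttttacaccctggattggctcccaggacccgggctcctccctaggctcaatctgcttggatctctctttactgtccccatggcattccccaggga
Tmem212 (chr2:112741869-112742038, minus strand): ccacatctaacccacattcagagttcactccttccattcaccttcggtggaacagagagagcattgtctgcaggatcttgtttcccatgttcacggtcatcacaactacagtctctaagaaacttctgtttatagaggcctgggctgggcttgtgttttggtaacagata
Dnai2 (chr10:100258852-100259021, plus strand): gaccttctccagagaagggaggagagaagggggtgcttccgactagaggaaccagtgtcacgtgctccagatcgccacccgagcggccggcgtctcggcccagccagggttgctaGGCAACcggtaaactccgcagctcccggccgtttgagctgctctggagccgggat
Tekt1 (chr10:57479122-57479291, minus strand): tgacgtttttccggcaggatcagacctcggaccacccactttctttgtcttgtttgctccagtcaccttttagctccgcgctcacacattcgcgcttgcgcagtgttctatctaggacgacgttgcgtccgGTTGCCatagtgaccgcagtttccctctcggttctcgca
Tekt2 (chr5:143907725-143907894, minus strand): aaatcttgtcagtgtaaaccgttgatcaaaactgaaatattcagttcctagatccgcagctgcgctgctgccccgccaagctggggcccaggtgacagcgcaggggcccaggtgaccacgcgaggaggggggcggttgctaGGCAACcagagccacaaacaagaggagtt
Spag6 (chr17:86261905-86262074, plus strand): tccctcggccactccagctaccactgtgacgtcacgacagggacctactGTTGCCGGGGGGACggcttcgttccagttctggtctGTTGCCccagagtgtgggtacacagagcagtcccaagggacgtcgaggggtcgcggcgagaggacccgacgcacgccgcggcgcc

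Of the 43 genes all matched a GRCr8 gene, and 32 had a promoter in the RefSeq table, 16 of them of the motile group. Over the 250 bases before the start and on both strands, the arm GTTGCC stood in 7 of the 16 motile promoters (43.8%), in 4 of 13 transport promoters (30.8%), and in 3311 of all 33469 promoters (9.89%). The full X-box, which can contain the arm, was matched in 2 of the 16 motile promoters, Spag6 and its near-copy Spag6l (12.5%), in 0 of 13 transport promoters and in 1.43% of all promoters. Other gaps between the arms and inexact arms were not searched, so a promoter without a match may still hold a variant X-box. Among the 3 promoters of Spag genes outside the axoneme, Spag5 held the full X-box and Spag4 the arm. The forkhead letters GTAAACA were matched in 1 motile promoter, that of Tekt3 (6.25%), against 3.215% of all promoters. The longest run shared by the Dnai2 and Tekt2 promoters was GGTTGCTAGGCAACC, 15 letters that include the arm. It was picked for being shared, after both had been seen, and stood in no other promoter of the table. The Tmem212 promoter held none of the 3 motifs. These matches describe letters only.

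The values are FPKM, fragments scaled to transcript length and to the mapped fragments of the library, so levels may be compared between genes. Libraries summed to 539094 to 596214 FPKM in TBI and 523239 to 629660 FPKM in sham, and the read depth is unknown. Of the 43 genes, 36 had a mean of at least 0.5 FPKM over the 10 libraries and were tested among 16194 features. Dnai2 (mean 0.499 FPKM) and Dnah1 (0.413) lay just under that limit and Rsph6a (0.704) just over it. Spag6l, Spag16, Spag4 and Spag11c were at means of 0.0653 FPKM or less, and Spag11b was at 0 in every library. All 12 neuronal markers of the hippocampus were present, with summed levels of 2783 to 5227 FPKM in TBI libraries and 4126 to 5488 FPKM in sham libraries. Choroid plexus markers varied far more. Of 22 listed, 21 were found, none at 0 throughout, and their summed level ran from 184 to 34868 FPKM in TBI and from 137 to 33187 FPKM in sham libraries. These ranges are alike, but all 21 markers had a higher mean of the log2 values after TBI. Their most abundant member, the carrier protein transthyretin (Ttr), was at 32233, 72.7, 9079, 11837 and 17771 FPKM in TBI libraries 1 to 5, and at 34.5, 31400, 9405, 56.2 and 421 FPKM in sham libraries 1 to 5. Meningeal and matrix markers summed to between 73.5 and 805 FPKM in TBI and between 65.3 and 587 FPKM in sham libraries, with 1 of the 15 found at 0 throughout.

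TBI was set against sham to see which ciliary genes differed 1 week after injury. With p-values adjusted over all features by Benjamini-Hochberg, limma called none of the 36 tested genes (smallest adjusted p = 0.983), where 0 of 16194 features passed (0%). At an unadjusted p under 0.05, 4 of the 36 were higher after TBI, Odf3b, Tekt4, Tekt3 and Ift81, against 228 features in all (1.41%). None were lower at that level, against 244 features (1.51%). The libraries of both groups did not overlap in 1 of the 36, Odf3b, which was higher after TBI. Without overlap, 39 of all tested features were higher (0.241%) and 39 lower (0.241%). Over the 21 motile genes the median log2 difference, TBI minus sham on log2(FPKM + 0.5), was 0.48, and 18 of the 21 had a higher mean after TBI. Over the 17 transport genes it was 0.087, with 16 higher, and over all tested features 0.0013, with 8158 of 16194 higher (50.4%). Many of the motile genes shared an order of libraries, with Dnai1, Rsph6a, Tekt3, Tekt5 and Odf3b among the exceptions, so these counts are not separate observations. The median of the motile genes was 0.26 without sham 4, and 0.17 with the choroid plexus score as a term in the fit. The number of transport genes higher after TBI also depended on the setting. It was 13 without sham 4, 13 with each library centred on its median, and 12 with the choroid plexus score as a term.

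**Figure D1:**
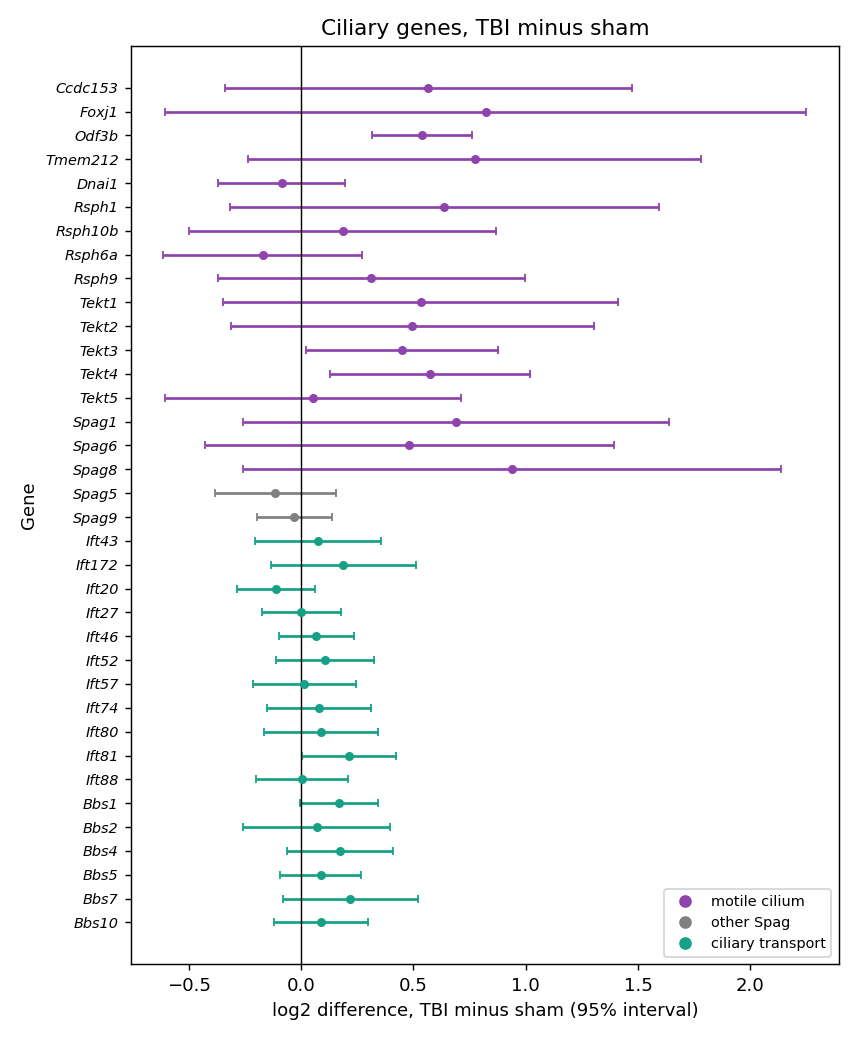
Log2 difference of each tested ciliary gene, TBI minus sham (x axis, log2(FPKM + 0.5) units), with its 95% interval from limma, by gene (y axis) and coloured by role. Among the motile genes the intervals of Odf3b, Tekt3 and Tekt4 lie wholly above 0 before adjustment for multiple tests, and 14 of 17 include 0. Intervals of transport genes are narrow, with a median half-width of 0.22 against 0.81 for motile genes.

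Odf3b, a relative of an outer dense fibre protein of the sperm tail and now counted among proteins of ciliary microtubules, gave the clearest separation. It was at 3.85, 3.32, 3.65, 3.22 and 3.91 FPKM in TBI libraries 1 to 5, and at 2.22, 2.42, 2.20, 2.06 and 2.70 FPKM in sham libraries 1 to 5. Every injured library lay above every sham library. The mean was 3.59 ± 0.311 FPKM after TBI and 2.32 ± 0.247 FPKM in sham (SD, n = 5 each), a log2 difference of 0.54 (SE 0.10, 95% interval 0.31 to 0.76, limma adjusted p = 0.983). Its level was nearly even within each group, unlike that of the other ependymal genes. The difference stayed between 0.47 and 0.61 over 23 alternatives and was 0.51 with the choroid plexus score as a term, while its adjusted p ran from 0.376 to 1.00. In GRCr8 the gene lies within 2 kb of Tymp, the thymidine phosphorylase gene, and the values carry no strand. Tymp was at 3.31, 2.43, 2.88, 2.23 and 2.51 FPKM in TBI libraries 1 to 5 and at 2.77, 2.49, 2.38, 1.96 and 2.32 FPKM in sham libraries 1 to 5, and its groups overlapped. Tymp was looked at after the values of Odf3b had been seen.

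Foxj1, the master regulator of motile cilia, spanned a 15.0-fold range over the libraries. It was at 24.2, 3.53, 13.0, 13.9 and 20.6 FPKM in TBI libraries 1 to 5, and at 4.77, 22.3, 12.7, 1.61 and 6.56 FPKM in sham libraries 1 to 5. The groups overlapped almost entirely, with TBI 2 among the low sham libraries and sham 2 among the high injured ones. The log2 difference of 0.82 had a 95% interval of -0.60 to 2.25 (limma adjusted p = 0.983). The 4 libraries with the lowest Foxj1, TBI 2 and sham 1, 4 and 5, were the 4 with the lowest Ttr. With the choroid plexus score as a term the difference of Foxj1 was 0.017, and it was 0.36 without sham 4 and 1.25 without TBI 2. In bulk tissue, fewer ciliated cells and less RNA per cell cannot be told apart.

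Ccdc153 and Tmem212, which mark ependymal cells, followed another order. Ccdc153 was at 3.74, 2.44, 3.14, 3.72 and 9.33 FPKM in TBI libraries 1 to 5, and at 3.49, 1.83, 3.49, 0.815 and 4.90 FPKM in sham libraries 1 to 5. TBI 5 stood above all others and sham 4 and sham 2 were lowest. Tmem212, a membrane protein, was at 5.55, 2.93, 3.87, 4.498 and 7.38 FPKM in TBI libraries 1 to 5, and at 3.87, 2.27, 4.24, 0.350 and 4.54 FPKM in sham libraries 1 to 5. It had the same 3 lowest libraries, sham 4, sham 2 and TBI 2, and the same highest one. In sham 2 Foxj1 was second highest of the 10 libraries while Ccdc153 and Tmem212 were second lowest. The level of Foxj1 over that of Ccdc153 was 6.47, 1.45, 4.14, 3.75 and 2.20 in TBI libraries 1 to 5, and 1.37, 12.2, 3.63, 1.97 and 1.34 in sham libraries 1 to 5, a ratio computed after the values had been seen. It was highest in sham 2 and TBI 1, the libraries with the most Ttr. The log2 difference was 0.57 for Ccdc153 (95% interval -0.34 to 1.47) and 0.77 for Tmem212 (-0.24 to 1.78), each with a limma adjusted p of 0.983. Without sham 4 they were 0.26 for Ccdc153 and 0.32 for Tmem212, that of Ccdc153 was 0.29 without TBI 5, and with the choroid plexus score as a term they were 0.46 and 0.57.

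**Figure D2:**
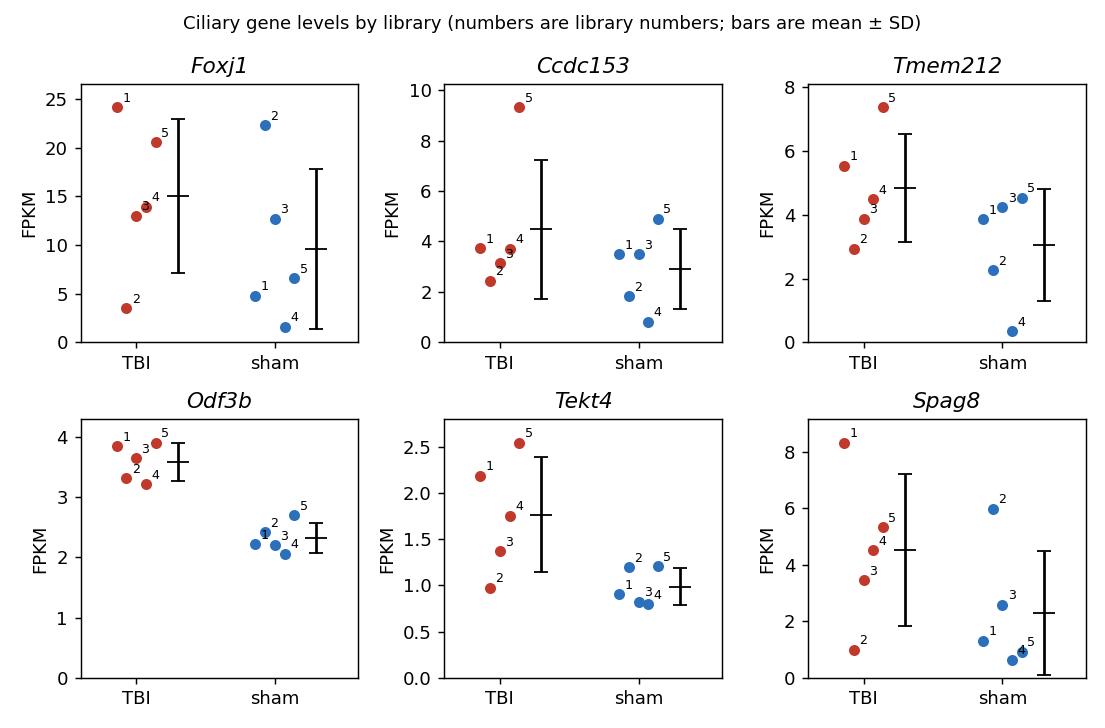
FPKM (y axis, from 0) of 6 motile genes in TBI and sham libraries (x axis). Points are libraries with their numbers, and the bar beside them is the mean ± SD of 5. Only for Odf3b do all TBI points, 3.22 FPKM and above, lie over all sham points, 2.70 FPKM and below.

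**Figure D3:**
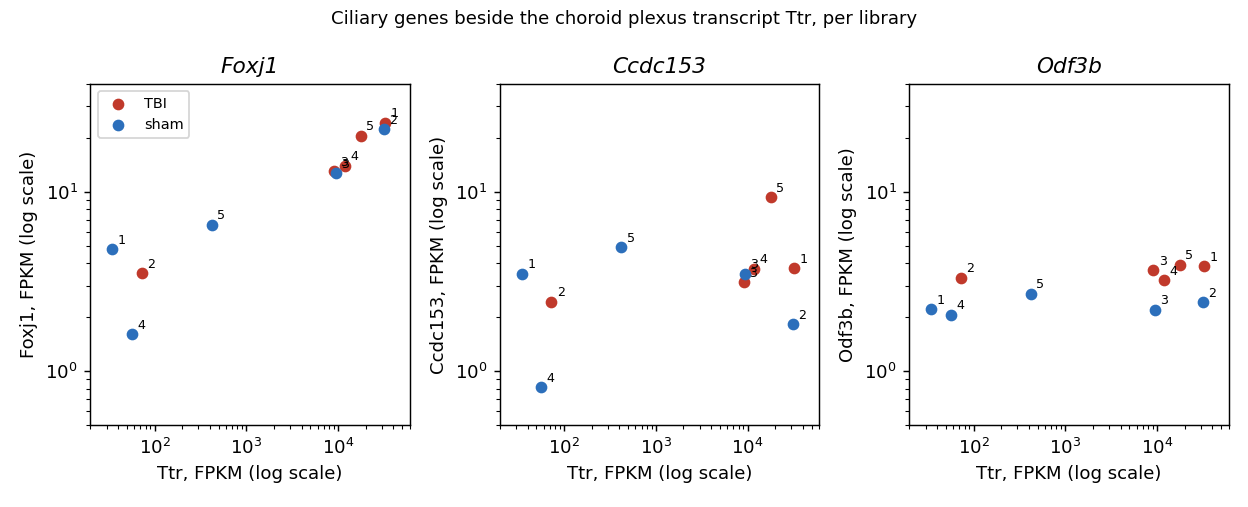
FPKM of Foxj1, Ccdc153 and Odf3b (y axes, log scale) beside Ttr (x axes, log scale), with 1 numbered point per library in TBI and sham. Foxj1 is at 12.7 FPKM or more in the 6 libraries with 9079 FPKM of Ttr or more, and at 6.56 FPKM or less in the others, while Ccdc153 is low in sham 2 (1.83 FPKM) despite its high Ttr.

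Dynein arms are the motors between microtubule doublets. Dnai1, an intermediate chain of the outer arm, was at 3.71 to 5.74 FPKM with a median of 4.65 in TBI, and at 4.22 to 5.86 FPKM with a median of 4.505 in sham. It hardly varied, and its log2 difference was -0.086 (95% interval -0.37 to 0.20). Its partner Dnai2 was at 0.722, 0.430, 0.617, 0.574 and 0.853 FPKM in TBI libraries 1 to 5 and at 0.239, 0.512, 0.522, 0.0679 and 0.452 FPKM in sham libraries 1 to 5. Dnah1, a heavy chain of an inner arm, was at 0.829, 0.201, 0.494, 0.400 and 0.687 FPKM in TBI libraries 1 to 5 and at 0.314, 0.360, 0.375, 0.0800 and 0.389 FPKM in sham libraries 1 to 5. Dnai2 and Dnah1 were lowest in sham 4, as Foxj1 was, whereas Dnai1 was at 4.48 FPKM there. In GRCr8 Dnai1 lies within 2 kb of Fam219a and Enho, and whether their reads enter its value was not tested.

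Radial spokes reach from the doublets to the central pair. Rsph1, a protein of the spoke head, was at 9.07, 3.69, 5.49, 9.97 and 7.52 FPKM in TBI libraries 1 to 5, and at 5.17, 12.4, 3.95, 1.78 and 2.48 FPKM in sham libraries 1 to 5. Sham 2 was the highest and sham 4 the lowest of all, so the groups overlapped (log2 difference 0.64, 95% interval -0.32 to 1.59, and 0.38 without sham 4). In GRCr8 Rsph1 overlaps Slc37a1, a sugar phosphate transporter gene at 1.82 to 2.67 FPKM, and 14 of the 43 genes overlap another gene. Rsph9, also of the spoke head, averaged 12.2 ± 3.896 FPKM after TBI and 10.2 ± 4.76 FPKM in sham, and Rsph10b averaged 9.08 ± 3.07 FPKM after TBI and 8.13 ± 3.73 FPKM in sham (SD, n = 5 each). Both were highest in sham 2 and next highest in TBI 1. The difference of Rsph10b, 0.19, was -0.22 with the choroid plexus score as a term and 0.052 without TBI 1. Rsph6a, a spoke protein of sperm, was at 0.357 to 1.05 FPKM and ran the other way, with its highest value in TBI 2 and its lowest in TBI 5.

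Tektins are filament proteins inside the doublet wall. Tekt4 was at 2.19, 0.977, 1.37, 1.75 and 2.55 FPKM in TBI libraries 1 to 5, and at 0.906, 1.20, 0.822, 0.794 and 1.21 FPKM in sham libraries 1 to 5. In TBI 2 it lay within the sham range, and the other 4 injured libraries lay above it (log2 difference 0.57, 95% interval 0.13 to 1.02, limma adjusted p = 0.983). Tekt3 was at 1.35, 0.927, 1.42, 1.47 and 1.29 FPKM in TBI libraries 1 to 5, and at 0.932, 0.335, 0.755, 1.06 and 1.11 FPKM in sham libraries 1 to 5. Here too all injured libraries but TBI 2 lay above the highest sham library (log2 difference 0.45, 95% interval 0.024 to 0.87, limma adjusted p = 0.983). With the choroid plexus score as a term the differences were 0.42 for Tekt4 and 0.52 for Tekt3, and without sham 4 they were 0.53 for Tekt4 and 0.51 for Tekt3. Without sham 2, its lowest library, the difference of Tekt3 was 0.29. Tekt1, the most abundant tektin, averaged 6.77 ± 2.90 FPKM after TBI and 4.77 ± 2.78 FPKM in sham (SD, n = 5 each), with its lowest value in sham 4. Its log2 difference was 0.53, and 0.24 without sham 4. Tekt5, known from sperm tails, was at 0.996 FPKM in TBI 1 and 1.13 FPKM in TBI 5, its lowest values, and at 3.35 FPKM in sham 1, its highest. Its log2 difference of 0.052 changed sign when single libraries were left out.

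Of the Spag genes with a ciliary role, Spag8, a protein inside the doublet wall, had the largest log2 difference of the tested ciliary genes, 0.94, with a 95% interval of -0.26 to 2.14. It was at 8.33, 0.993, 3.45, 4.52 and 5.33 FPKM in TBI libraries 1 to 5, and at 1.31, 5.99, 2.58, 0.640 and 0.916 FPKM in sham libraries 1 to 5. The order of libraries was much like that of Foxj1, and the difference was 0.24 with the choroid plexus score as a term and 0.69 without sham 4. Spag1, which helps assemble dynein arms in the cytoplasm, averaged 3.67 ± 1.85 FPKM after TBI and 2.32 ± 2.03 FPKM in sham. Spag6, of the central pair, averaged 5.40 ± 2.53 FPKM after TBI and 3.84 ± 1.84 FPKM in sham (SD, n = 5 each), with a log2 difference of 0.48 that was 0.14 without sham 4. Spag6 and Spag6l are near-copies, so reads may be divided between them.

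The Spag genes that are no part of the axoneme behaved unlike the motile ones. Spag9, a scaffold of motor proteins and kinases, averaged 55.7 ± 2.91 FPKM after TBI and 57.0 ± 4.91 FPKM in sham, and varied 1.26-fold over the libraries. Spag5, a protein of the mitotic spindle, averaged 35.6 ± 4.85 FPKM after TBI and 38.7 ± 5.598 FPKM in sham (SD, n = 5 each), a log2 difference of -0.11 (95% interval -0.38 to 0.16). That level stands beside 0.503 to 1.11 FPKM of the proliferation marker Mki67. In GRCr8 Spag5 lies within 2 kb of Aldoc, an abundant astrocyte gene at 343 to 599 FPKM. Aldoc was lowest in TBI 1 and highest in sham 5, and so was Spag5. Other libraries did not run in parallel. Sham 1 had 592 FPKM of Aldoc and 31.1 FPKM of Spag5, and TBI 5 had 435 FPKM of Aldoc and 40.1 FPKM of Spag5. Whether reads of Aldoc enter the Spag5 value was not tested.

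**Figure D4:**
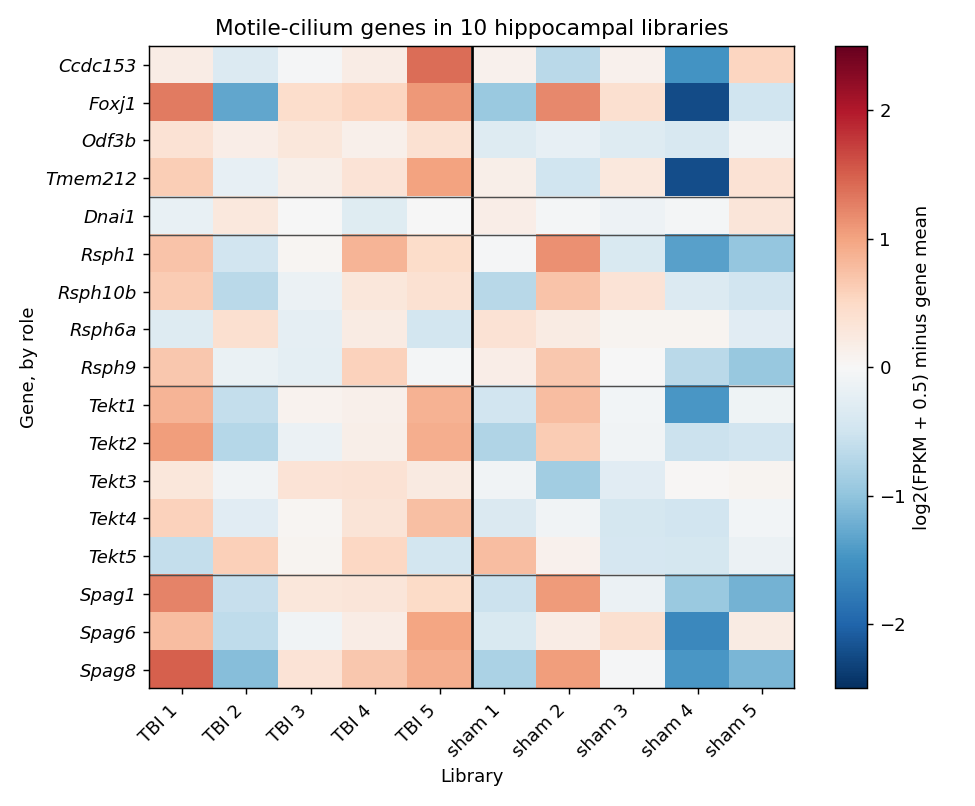
Tested motile genes (rows, grouped by role) in TBI and sham libraries (columns, divided by the black line), coloured by log2(FPKM + 0.5) minus the mean of the gene over 10 libraries. Sham 4 is the lowest of the 10 libraries for 9 of 17 genes. Rows of Dnai1, Rsph6a, Tekt3 and Tekt5 run unlike the others, and Odf3b differs between the groups with little variation within them.

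Over the 17 tested motile genes, sham 4 was lowest of the 10 libraries for 9 and among the 3 lowest for 13. TBI 2 was the lowest injured library for 12 of the 17. TBI 5 was highest of all for 6, TBI 1 for 4 and sham 2 for 3. The motile score, the mean centred log2 level of these genes, was 0.57, -0.34, 0.070, 0.32 and 0.52 in TBI libraries 1 to 5, and -0.21, 0.32, -0.043, -0.91 and -0.29 in sham libraries 1 to 5. Sham 2 thus lay with the higher injured libraries and TBI 2 with the lower sham libraries. The choroid plexus score was 2.59, -2.55, 0.90, 1.20 and 1.68 in TBI libraries 1 to 5, and -2.70, 2.03, 1.00, -2.20 and -1.95 in sham libraries 1 to 5. It and the motile score were above 0 together in 5 libraries and below 0 together in 4, with sham 3 the exception at a motile score of -0.043. Sham 4, lowest in motile genes, had a choroid plexus score close to that of sham 5 and a meninges and matrix score of 1.79, second to the 1.83 of TBI 1.

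Motile cilium genes outside the name rule gave much the same picture. They were measured in the same 10 libraries and many share the library order of the motile genes, so they are not separate evidence. Of 69 listed, 42 were found and 36 tested, and none passed limma's test after adjustment. In 41 of the 42 the mean of the log2 values was higher after TBI, with a median log2 difference of 0.39. Of all features above 0 FPKM in any library, 11308 of 21281 were higher. The median of the 42 was not recomputed without sham 4 or with the choroid plexus score as a term. The RFX family gene Rfx3 is among the 41, with a mean of 12.73 FPKM after TBI and 12.75 FPKM in sham. Their score was 0.62, -0.40, 0.011, 0.31 and 0.60 in TBI libraries 1 to 5, and -0.31, 0.30, 0.037, -0.96 and -0.21 in sham libraries 1 to 5. Ccdc39, which sets the spacing of inner arms and spokes, averaged 4.45 ± 0.252 FPKM after TBI and 3.78 ± 0.413 FPKM in sham (log2 difference 0.22, 95% interval 0.0067 to 0.42). Zmynd10, a dynein arm assembly factor, averaged 8.62 ± 3.003 FPKM after TBI and 5.07 ± 3.60 FPKM in sham, and Efhc2 averaged 0.912 ± 0.549 FPKM after TBI and 0.463 ± 0.138 FPKM in sham (SD, n = 5 each). Each had a limma adjusted p of 0.983.

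The 8 named genes outside the rule whose levels over the 10 libraries were most like the motile score were Enkur, Mns1, P2rx6, LOC690276, RGD1560672, Capsl, Wdr78 and Rabgap1l, out of 10809 candidates of mean 1 FPKM or more. Their Pearson correlations with the score ran from 0.972 to 0.985 over 10 libraries, as a description. The motile and choroid plexus scores had the same sign in every library but sham 3. Whether choroid plexus content underlies the shared order was not tested. Sham 1 and sham 4 had choroid plexus scores of -2.70 and -2.20 but motile scores of -0.21 and -0.91. Enkur, Mns1, Capsl and Wdr78 are on the list of motile cilium genes, while P2rx6 encodes a subunit of an ATP-gated channel and Rabgap1l a regulator of Rab proteins. Enkur was at 21.5, 6.17, 10.4, 14.4 and 18.2 FPKM in TBI libraries 1 to 5, and at 7.36, 17.3, 10.4, 3.92 and 7.04 FPKM in sham libraries 1 to 5. P2rx6 was at 3.56, 1.83, 2.76, 3.28 and 4.15 FPKM in TBI libraries 1 to 5, and at 1.98, 2.87, 2.05, 0.994 and 1.70 FPKM in sham libraries 1 to 5.

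Transport genes were expressed at higher and steadier levels than most motile genes. All 17 were tested, at means of 4.48 to 32.9 FPKM, and the highest library was at most 1.94 times the lowest. Among the 17 tested motile genes this range reached 21.1 times, in Tmem212, and was at least 4 times in 10. The SD of the log2 level over the 10 libraries had a median of 0.15 for transport genes, 0.67 for tested motile genes and 0.23 for all tested features.

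Ift43 was the only IFT-A gene that met the rule. It was at 12.4, 9.66, 9.56, 9.92 and 11.1 FPKM in TBI libraries 1 to 5, and at 9.45, 13.5, 9.37, 8.43 and 9.46 FPKM in sham libraries 1 to 5, with overlapping groups. Among the 10 IFT-B genes Ift20, which also serves at the Golgi, was highest, at 31.6 ± 2.75 FPKM after TBI and 34.1 ± 2.07 FPKM in sham, and Ift46, a core subunit, averaged 26.6 ± 2.20 FPKM after TBI and 25.3 ± 1.44 FPKM in sham (SD, n = 5 each). Ift20 was the only transport gene with a lower mean after TBI, with a log2 difference of -0.11 (95% interval -0.28 to 0.063). Ift81, which binds tubulin as cargo together with Ift74, was at 10.3, 11.1, 8.18, 9.87 and 9.22 FPKM in TBI libraries 1 to 5, and at 8.85, 9.09, 8.004, 7.81 and 7.75 FPKM in sham libraries 1 to 5. Only TBI 3 lay within the sham range (log2 difference 0.21, 95% interval 0.0054 to 0.42, limma adjusted p = 0.983). Its partner Ift74 averaged 9.44 ± 1.33 FPKM after TBI and 8.84 ± 0.565 FPKM in sham.

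All 5 BBSome genes had a higher mean after TBI, and none passed adjustment. Bbs1 was at 11.1, 9.70, 10.04, 11.5 and 9.81 FPKM in TBI libraries 1 to 5, and at 9.18, 8.91, 9.93, 9.49 and 8.56 FPKM in sham libraries 1 to 5. Its log2 difference was 0.17 (95% interval -0.0033 to 0.34, limma adjusted p = 0.983), with the groups overlapping only through sham 3. Bbs4 averaged 18.2 ± 2.81 FPKM after TBI and 15.96 ± 1.27 FPKM in sham. Bbs7 averaged 6.75 ± 1.27 FPKM after TBI and 5.69 ± 0.728 FPKM in sham, and Bbs2 12.2 ± 1.69 FPKM after TBI and 11.8 ± 2.57 FPKM in sham (SD, n = 5 each). Bbs10, a chaperonin-like protein that helps assemble the BBSome, averaged 5.08 ± 0.491 FPKM after TBI and 4.73 ± 0.406 FPKM in sham. TBI 1 was the highest of the 10 libraries for 7 of the 17 transport genes, and sham 5 the lowest for 6.

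**Figure D5:**
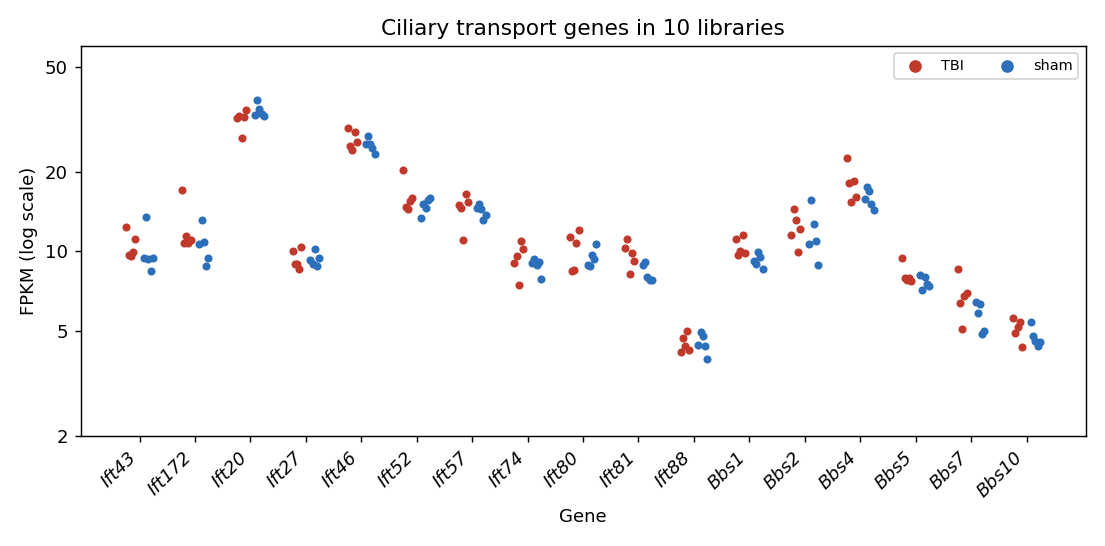
FPKM (y axis, log scale) of the 17 transport genes (x axis) in 5 TBI and 5 sham libraries, 1 point each. The point clouds of both groups overlap in every gene, and none of the genes spans more than 1.94 times from its lowest to its highest library.

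Of 27 other transport genes on a list of IFT and BBSome subunits, motors and small GTPases, 21 were found and tested. None passed limma's test after adjustment, and 15 had a higher and 6 a lower mean after TBI, with a median log2 difference of 0.086. Arl13b, a GTPase of the ciliary membrane, was at 5.25, 3.56, 3.57, 2.83 and 2.76 FPKM in TBI libraries 1 to 5 and at 3.14, 2.52, 2.66, 2.501 and 2.79 FPKM in sham libraries 1 to 5. TBI 1 stood out. The light intermediate chain of the retrograde motor, Dync2li1, averaged 16.2 ± 1.46 FPKM after TBI and 14.1 ± 1.54 FPKM in sham, and Mkks, a chaperonin-like BBS protein, averaged 23.2 ± 1.51 FPKM after TBI and 25.2 ± 0.781 FPKM in sham (SD, n = 5 each). Each of these had a limma adjusted p of 0.983.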

How the data were processed

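The authors deposited FPKM values per locus for each of the 10 libraries. Per the submitters' processing notes, the genome build was rn5 and the tools were Cufflinks, Cuffdiff, TopHat2, TopHat, Bowtie2 and Bowtie, listed without role or version. The annotation behind the loci is not stated in those notes. The 75th percentiles of the deposited FPKM columns, 13.1 to 13.5, were close, and whether a further scaling between libraries was applied is not stated. FPKM are not counts, so the depth is unknown, no count test was run, and precision came from the spread between libraries. Reads of overlapping or near-identical genes cannot be told apart.

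Rows of the same symbol were summed per library. Of 25269 rows, 7177 had no symbol and were kept as features of their own. Groups and library numbers came from the titles. Groups were compared two-sided with limma 3.58.1 (R 4.3.3, mean trend) on log2(FPKM + 0.5) for features of mean FPKM of at least 0.5, with Benjamini-Hochberg adjustment over all 16194 and a threshold of 0.05. The offset of 0.5 understates the change of low genes. The test was tried on simulated data first. Scores are means, over members of a list, of log2 values centred on the 10 libraries. The genes, lists and alternatives were chosen with earlier results of these data known. Named were Foxj1, Ccdc153, Tmem212, Odf3b, up to 2 members per role by mean level and up to 2 by smallest p, 3 genes by smallest p from each list outside the rule, the 8 genes most like the motile score, and Ttr. A few other members are given for context. Deviations from the group means of same-numbered libraries correlated between -0.38 and 0.31, and the libraries were not treated as pairs. The labels do not say what the numbers share, and these correlations cannot settle it. Overlaps and promoters came from RefSeq tables of GRCr8, used for names, neighbours and sequence only. Figures were drawn with matplotlib 3.10.9 in Python 3.11.15.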

Additional observations from a re-analysis of the deposited data

Results flagged for a closer look

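In 5 of 90 groups of 5 libraries, a single library lay far from the rest by Dixon's test, which by chance marks about 1 group in 20. Ccdc153 was at 9.33 FPKM in TBI 5, where the next highest injured library was at 3.74. Efhc2 was at 1.86 FPKM in TBI 1, with the next at 0.835. Spag1 was at 5.83 FPKM in sham 2 with the next at 2.26, and Ift43 at 13.5 FPKM in sham 2 with the next at 9.46. Dnah1 was at 0.0800 FPKM in sham 4, below 0.314 in the next lowest sham library.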

How the results depend on the processing

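No ciliary gene passed limma's adjusted test under any of the 23 alternatives. Over all features 0 passed in 22 of them, and without sham 4 there were 2, Plac9 and an unnamed locus. Leaving out single libraries, the count ran from 0 to 2. The median difference of the motile genes was 0.14 with choroid plexus and meninges scores together, and ran from 0.26 (without sham 4) to 0.56 leaving out single libraries and up to 0.61 with an offset of 0.1. That of the transport genes stayed between 0.048 and 0.11. With the replicate block, a term for the library number, 0 genes passed and the medians were 0.48 and 0.087. What the numbers share is not stated in the labels, and the block changed no other call.

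Of 989 values of named genes under alternatives, 969 kept their sign and call and 20 changed sign. The cause was not tested. With the choroid plexus score as a term these were Dnai1 (0.019), Rsph10b (-0.22), Spag9 (0.026), Ift43 (-0.033) and Ttr (-0.081). With both scores they were Foxj1 (-0.089), Dnai1 (0.00082), Rsph10b (-0.20), Spag6 (-0.030), Spag9 (0.020), Ift43 (-0.022) and Ttr (-0.27). Ttr, at 2.83 in the main fit, is itself a member of the choroid plexus score. Its fall with that score as a term was thus built in and is no result. Under quantile normalization the genes that changed sign were Tekt5 (-0.035) and Spag9 (0.016). Leaving out single libraries, Tekt5 ran from -0.090 to 0.25, Spag9 from -0.073 to 0.0087 and Bbs2 from -0.021 to 0.18. Depth is unknown, and the spread between libraries and the low levels of several motile genes limit how small a change could be seen. The SE did not simply follow the level. It was 0.65 for Foxj1 (mean 12.3 FPKM over the 10 libraries) and 0.19 for Tekt3 (1.06 FPKM).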

Other observations

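Stoml3, known from olfactory cilia and sensory neurons, had the order of Ccdc153 and Tmem212 in its extremes. It was at 1.502, 1.51, 1.45, 2.22 and 3.36 FPKM in TBI libraries 1 to 5, and at 1.33, 0.593, 2.09, 0.192 and 1.95 FPKM in sham libraries 1 to 5. TBI 5 was highest and sham 4 and sham 2 lowest. Ttc8, a BBSome subunit outside the name rule, was at 18.1, 7.76, 6.85, 8.05 and 8.42 FPKM in TBI libraries 1 to 5, and at 6.58, 8.35, 6.83, 6.79 and 6.64 FPKM in sham libraries 1 to 5, so that TBI 1 was more than 2 times any other library. Both genes were chosen after their values had been seen.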
